A study of Mus musculus with 2 samples.

Results

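The 10 genes described here are the Vegf receptors and angioblast genes Etv2, Kdr, Flt1, Flt4, Tek, Tie1, Tal1, Lmo2, Vegfa and Vegfc, of 27998 genes counted in single cells of mouse inter-limb somites. They were taken by symbol, and the choice was made with earlier results of these data known, so every value is a description. Wild-type C57BL/6 embryos were collected, untreated, at E9.5 or E11.5, and the inter-limb somites of 3 embryos were pooled into 1 droplet library per stage. The groups therefore share genotype and strain and differ in age, litter and library, which cannot be told apart. With 1 library per stage there is no replicate check, and no test between the stages was made.

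Vegf proteins are secreted signals that bind receptor tyrosine kinases on endothelial cells, the cells that line blood vessels, and on angioblasts, their precursors. Etv2 is a transcription factor that starts the blood and endothelial programme and is normally shut off as vessels mature. Somites, besides muscle, cartilage and dermis, are known to give rise to endothelial cells. Pax3-expressing cells at their lateral edge include both angioblasts and the muscle precursors that migrate into the limbs.

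Etv2 and the 5 receptors are shown with the 250 bases before the start annotated by RefSeq, because the receptor genes followed Kdr across cell classes while Etv2 did not. In GRCm38 the annotation of GENCODE places Kdr on the minus strand at chr5:75932827-75978458 and Etv2 on the minus strand at chr7:30633616-30635852. The Flt4 window and most of the Tie1 window lie inside the gene as GENCODE bounds it. The sequences are those of RefSeq for GRCm38.p6, written 5′ to 3′ on the strand of the gene. Capitals mark GGAAG or its reverse complement CTTCC, the core letters that ETS factors such as Etv2 bind.

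Etv2, chr7:30635853-30636102, minus strand: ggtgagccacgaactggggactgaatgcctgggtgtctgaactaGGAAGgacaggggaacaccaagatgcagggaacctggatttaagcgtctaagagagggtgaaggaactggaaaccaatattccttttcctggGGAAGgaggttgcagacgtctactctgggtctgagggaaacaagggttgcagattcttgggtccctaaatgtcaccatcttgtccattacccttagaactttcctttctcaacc

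Kdr, chr5:75978456-75978705, minus strand: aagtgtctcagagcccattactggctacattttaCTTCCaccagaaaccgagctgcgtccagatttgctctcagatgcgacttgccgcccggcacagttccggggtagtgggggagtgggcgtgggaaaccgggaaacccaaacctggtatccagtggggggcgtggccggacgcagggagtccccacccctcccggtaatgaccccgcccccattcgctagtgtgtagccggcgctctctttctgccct

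Flt1, chr5:147726012-147726261, minus strand: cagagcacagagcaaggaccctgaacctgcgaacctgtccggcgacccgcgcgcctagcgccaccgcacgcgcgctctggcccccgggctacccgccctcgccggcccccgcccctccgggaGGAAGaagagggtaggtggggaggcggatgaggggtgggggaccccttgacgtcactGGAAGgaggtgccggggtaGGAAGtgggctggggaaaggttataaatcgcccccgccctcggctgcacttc

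Flt4, chr11:49609429-49609678, plus strand: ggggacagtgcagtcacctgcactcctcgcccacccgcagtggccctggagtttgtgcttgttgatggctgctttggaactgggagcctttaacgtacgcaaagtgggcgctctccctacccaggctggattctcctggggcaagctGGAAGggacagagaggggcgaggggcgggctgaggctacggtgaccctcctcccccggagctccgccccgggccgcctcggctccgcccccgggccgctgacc

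Tie1, chr4:118489850-118490099, minus strand: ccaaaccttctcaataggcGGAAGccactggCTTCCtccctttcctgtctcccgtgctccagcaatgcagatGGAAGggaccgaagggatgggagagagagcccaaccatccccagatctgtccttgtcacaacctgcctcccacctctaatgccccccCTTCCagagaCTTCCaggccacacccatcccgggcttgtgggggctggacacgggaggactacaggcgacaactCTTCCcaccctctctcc

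Tek, chr4:94739039-94739288, plus strand: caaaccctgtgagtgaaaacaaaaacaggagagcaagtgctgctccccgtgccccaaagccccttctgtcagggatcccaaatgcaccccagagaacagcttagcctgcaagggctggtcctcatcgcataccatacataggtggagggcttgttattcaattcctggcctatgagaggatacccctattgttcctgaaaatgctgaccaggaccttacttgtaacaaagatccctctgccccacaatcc

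In these windows the ETS letters were found 6 times for Tie1, 3 times for Flt1, 2 times for Etv2, 1 time each for Kdr and Flt4 and not for Tek. Promoters of 9 of the 10 genes were matched, in 11 entries, and 8 of these entries held the letters. They are common letters, held by 64.1% of all 32851 promoter windows of this length on either strand, so a match describes the window and shows no binding. AGATAA, the letters of GATA factors, was in 2 of the 11 entries and in 9.99% of all windows. CANNTG, the E-box letters bound by factors such as Tal1, was in 5 of the 11 entries and in 66.2% of all windows. A base shared by different motifs was counted for each.

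After the filters of the study the E9.5 library held 9851 cells, with a median of 12462 unique molecular identifiers (UMIs, random tags that let each captured transcript be counted once), and the E11.5 library 9595 cells with a median of 12479. In all, 25 barcodes occurred in both libraries. Levels are summed UMIs of a gene per 1000000 UMIs of the same cells (UPM), and all intervals are exact 95% intervals that cover counting error only. Scrublet marked 5.85% of E9.5 and 3.45% of E11.5 cells as likely doublets, droplets with more than 1 cell. These cells were kept and were left out only in an alternative.

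Endothelial gated cells were defined by a UMI of Cdh5, the endothelial cadherin, and of at least 2 of Pecam1, Esam, Egfl7, Cldn5, Emcn and Ramp2, so that none of the 10 genes was used. There were 317 such cells at E9.5 (3.22% of the library) and 79 at E11.5 (0.823%). Markers outside the gate were present, with Plvap, a protein of endothelial pores, in 93.4% and Erg, an endothelial ETS factor, in 40.1% of these cells at E9.5. Of 6 white blood cell genes, Ptprc and Csf1r had 0 UMIs in them at E9.5 and Laptm5 was highest with 17.0% of cells, while at E11.5 all 6 were found, in 2.53% of cells for Ptprc up to 40.5% for Laptm5. At E11.5, 7 of the 79 cells also met the white blood cell gate. Of 4 somite markers, Tcf15 was in 41.6% of endothelial gated cells at E9.5 and 79.7% of those at E11.5, Foxc2 in 38.5% and 8.86%, Meox2 in 6.31% and 6.33% and Dmrt2 in 2.21% and 2.53%. Without cells that met another gate, the log2 ratio of Kdr between the stages given below was 0.41 in place of 0.49.

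Somite gated cells carried at least 1 UMI of Pax3 and of Meox1, transcription factors of the paraxial mesoderm. There were 1840 at E9.5 (18.7%) and 551 at E11.5 (5.74%). Of those at E9.5, 86.5% had a UMI of Tcf15 and 62.1% of Meox2, whereas at E11.5 the shares were 82.6% and 23.2%. Sox2, a neural tube gene, was in 21.2% of the E9.5 cells, 226 of which also met the neural tube gate. The somite and endothelial gates shared 20 cells at E9.5 and 3 at E11.5. The 20 shared cells had a median of 28926 UMIs, against 16201.5 for all somite gated cells, and 12 of them were Scrublet calls. Values for somite gated cells are therefore also given without them, an alternative added after the values were seen.

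**Figure D1:**
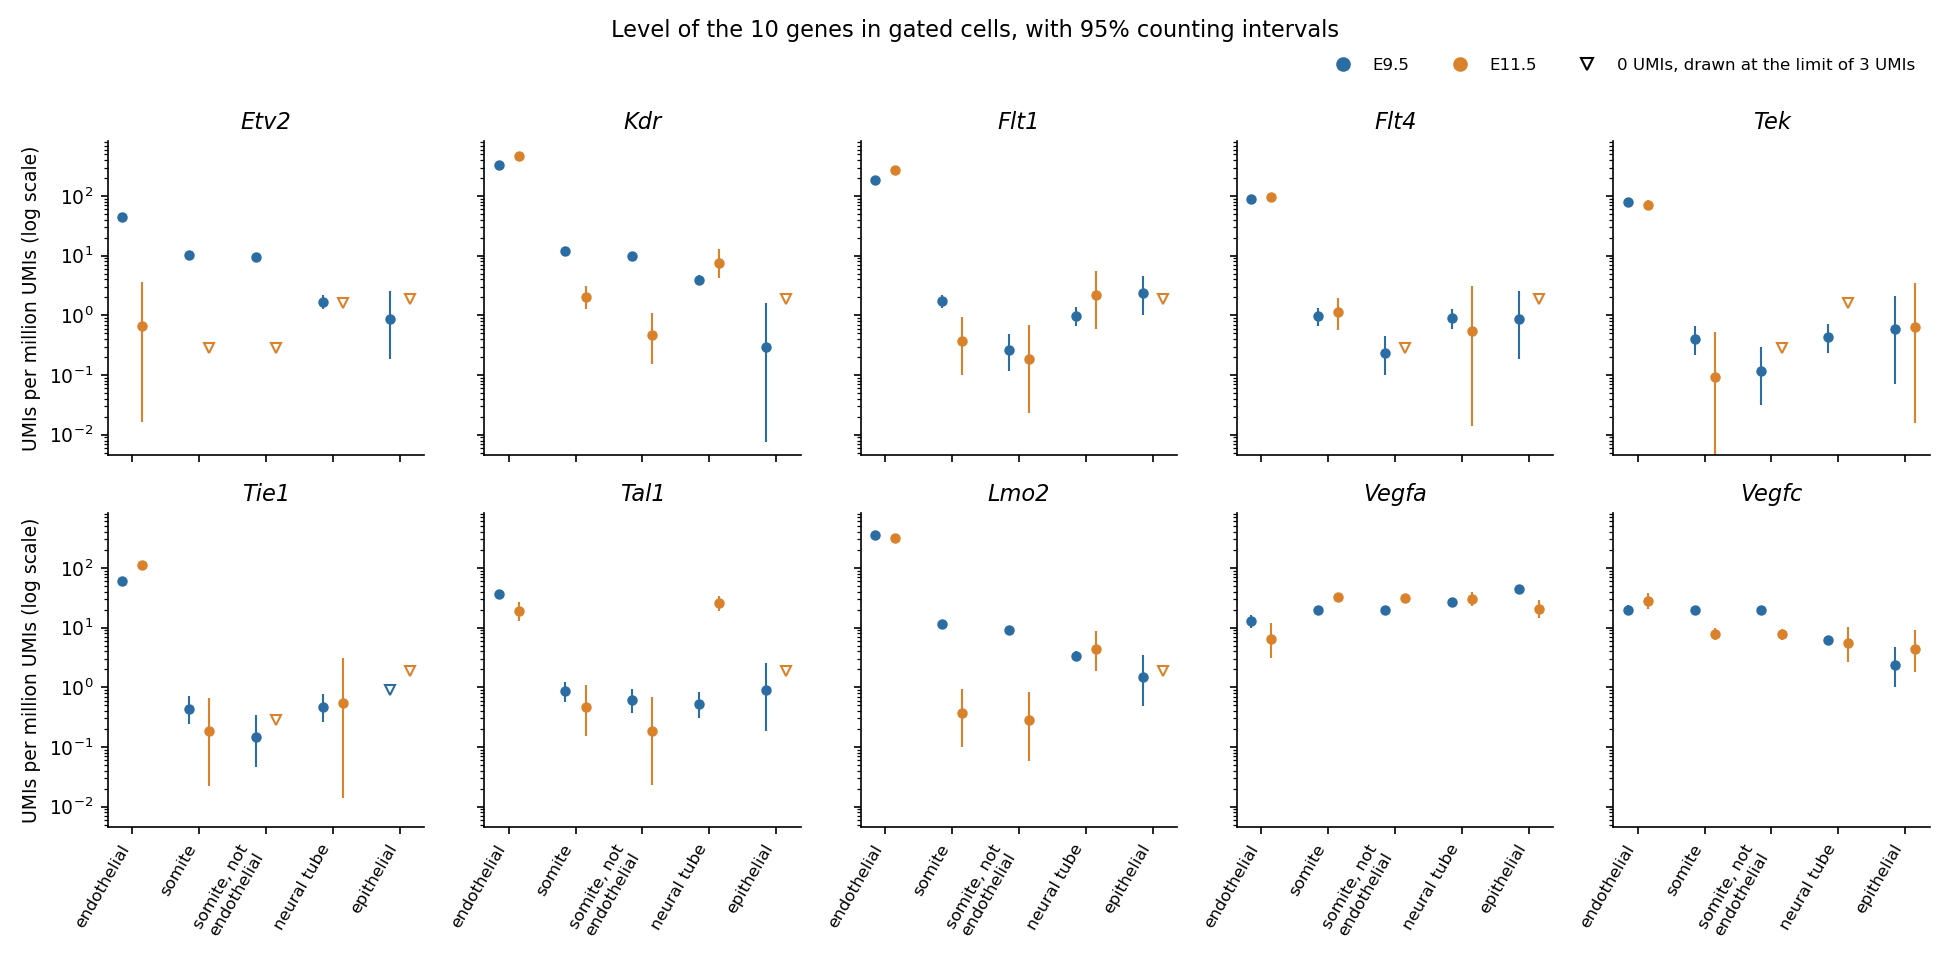
Level of each of the 10 genes in UPM on a log axis, in endothelial, somite, neural tube and epithelial gated cells, and in somite gated cells outside the endothelial gate, of the E9.5 (blue) and E11.5 (orange) library, with exact 95% Poisson intervals as vertical lines and open triangles at the limit of 3 UMIs where no UMI was found. The 5 receptors stand highest in endothelial gated cells at both stages, Etv2 is near the floor at E11.5 in every class shown, and Vegfa lies between 6.54 and 44.2 UPM in all of them.

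Among endothelial gated cells Kdr, Flt1 and Tie1 were higher at E11.5, by less than 2-fold, and Etv2 was down to 1 UMI. Etv2 had 249 UMIs at E9.5, a level of 44.3 UPM with an interval of 38.9 to 50.1, and 106 of 317 cells (33.4%) had at least 1. At E11.5 there was 1 UMI in 79 cells, a level of 0.654 UPM and a log2 ratio of −6.08 with an interval of −11.39 to −3.59. In the whole E11.5 library Etv2 had 15 UMIs in 15 cells, each cell with a single UMI.

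Tal1, a basic helix-loop-helix factor of blood and early endothelium, had 36.3 UPM at E9.5 and 19.0 UPM at E11.5 in endothelial gated cells. Its log2 ratio was −0.94 with an interval of −1.55 to −0.37, short of a 2-fold difference. Lmo2, a LIM-domain adaptor that binds Tal1 in complexes with GATA factors, stood at 355 UPM and 320 UPM, with a log2 ratio of −0.15 and an interval of −0.29 to −0.00 that ended just under 0.

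Kdr, the main signalling receptor for Vegfa, had 336 UPM at E9.5 (interval 321 to 352) and 472 UPM at E11.5 (438 to 508) in endothelial gated cells. It was found in 90.5% and 89.9% of them. The log2 ratio was 0.49 with an interval of 0.36 to 0.61, higher at E11.5 by less than 2-fold. Flt1, which binds Vegfa tightly and limits its action on Kdr, had 184 and 273 UPM, a log2 ratio of 0.57 with an interval of 0.40 to 0.73. For Flt4, the receptor of Vegfc and a regulator of sprouting and lymphatic growth, the levels were 88.9 and 96.8 UPM with an interval of the log2 ratio from −0.15 to 0.39, which holds 0.

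Tek, the receptor of the angiopoietins, had 78.0 UPM at E9.5 and 70.6 UPM at E11.5 with an interval of −0.46 to 0.16, which also holds 0. Tie1, its partner receptor, had 60.2 and 110 UPM, the highest log2 ratio of the 10 genes at 0.87 with an interval of 0.59 to 1.14. All 5 receptors were detected together in 28.1% of endothelial gated cells at E9.5 and in 36.7% at E11.5, and none of them in 12 and 5 cells. The median depth of these cells was 15001 UMIs in the E9.5 and 17389 in the E11.5 library, a difference that moves with these shares and was not tested as their source.

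The ligands were low in endothelial gated cells. Vegfa, the ligand of Kdr and Flt1, had 72 UMIs (12.8 UPM) at E9.5 and 10 UMIs (6.54 UPM) at E11.5, with a log2 ratio of −0.97 and an interval of −2.09 to −0.01. Vegfc, the ligand of Flt4, had 19.9 and 28.1 UPM, with an interval of the log2 ratio from −0.04 to 1.02.

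Of 8592 genes with at least 50 UMIs over both stages in endothelial gated cells, 6.19% were at least 2-fold higher at E11.5 and 2.84% at least 2-fold lower, with a median log2 ratio of 0.04. All 10 genes had enough UMIs, of which 1, Etv2, was past 2-fold lower and 0 past 2-fold higher. Their median log2 ratio was −0.01. The count moves with the processing, as given at the end for Vegfa, Tal1 and Vegfc. Of the Vegf and other ligands listed besides these genes, 2 of 6 had enough UMIs, and Apln, the ligand of the apelin receptor, was 2.20-fold higher at E11.5. Among 6 co-receptors and receptor partners, all with enough UMIs, only Ptprb, an endothelial phosphatase that acts on Tek, passed 2-fold, at 2.15-fold higher.

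Of 13 further transcription factors, 11 had enough UMIs and Sox7 alone passed 2-fold, from 48.2 to 102 UPM. The arterial and venous list stood apart from the others in its count, with 4 of 7 genes at least 2-fold higher at E11.5 and 0 lower. These were the arterial ligand Efnb2 (48.3 to 114 UPM), the Notch ligand Dll4 (25.4 to 60.8 UPM), its receptor Notch4 (20.3 to 62.8 UPM) and the chemokine receptor Cxcr4 (4.98 to 26.8 UPM). The gate genes Cdh5 and Pecam1 also were higher at E11.5, by 2.01-fold and 3.36-fold. The part of the gate in these differences was not tested.

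**Figure D2:**
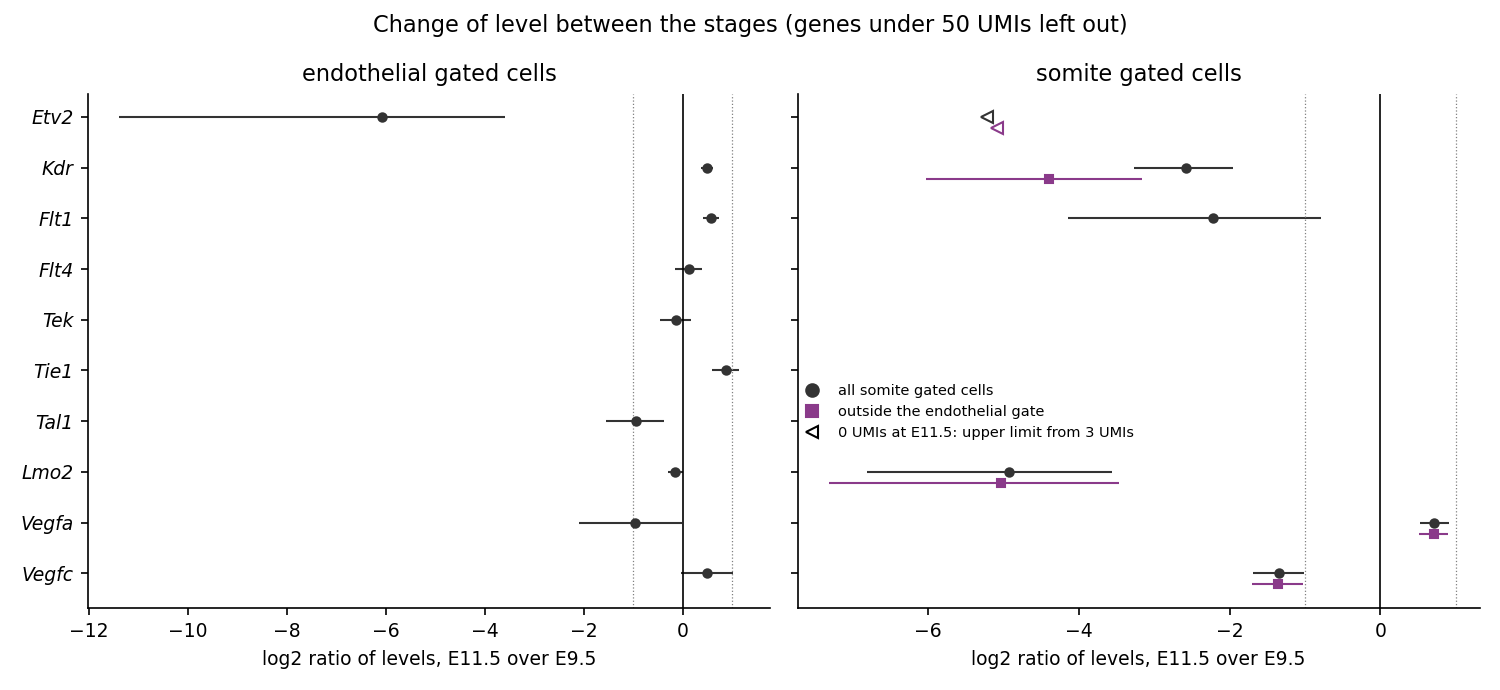
Log2 ratio of the level at E11.5 over E9.5 for each of the 10 genes in endothelial gated cells (left) and in somite gated cells (right), with exact 95% intervals as horizontal lines, squares for somite gated cells outside the endothelial gate, genes under 50 UMIs left out, 2-fold marked by dotted lines, and open arrowheads for upper limits where E11.5 had no UMI. Etv2 lies far to the left in both panels, and Kdr lies to the right of 0 in endothelial and to the left of 0 in somite gated cells.

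Somite gated cells carried Etv2, Kdr and Lmo2 at E9.5 and almost none of them at E11.5. Etv2 had 364 UMIs in 74 of 1840 cells at E9.5, a share of 4.02% (3.17 to 5.02) and a level of 10.4 UPM. At E11.5 it had 0 UMIs in 551 cells. With 3 counts taken as the limit that a count of 0 allows, up to 0.544% of these cells could carry a UMI at this depth, and the level was at least 37.1-fold lower. Without the cells shared with the endothelial gate, Etv2 was at least 34-fold lower.

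Kdr was found in 154 somite gated cells or 8.37% (7.14 to 9.73) at E9.5. At E11.5 there were 8 such cells, or 1.45% (0.629 to 2.84). Its level went from 12.2 to 2.05 UPM, a log2 ratio of −2.57 with an interval of −3.26 to −1.96. Of the 22 Kdr UMIs at E11.5, only 5 lay outside the 3 cells shared with the endothelial gate. Without the shared cells the level was 9.87 UPM at E9.5 and 0.469 UPM at E11.5, 21.0-fold lower, with a log2 ratio of −4.39 and an interval of −6.03 to −3.16.

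A share of cells with a UMI can be raised by free RNA, transcripts from broken cells that enter other droplets. In neural tube gated cells, which should lack these genes, Kdr was found in 3.16% and Etv2 in 1.53% of 2023 cells at E9.5, with a median of 12843 UMIs. In 180 epithelial gated cells, with a median of 17118.5 UMIs, the shares were 0.556% and 1.67%. The neural tube gated cells included 226 somite gated and 17 endothelial gated cells. In the 1698 of them that met no other gate, an alternative added after the values were seen, Kdr was in 1.65% and Etv2 in 1.00% of cells. After every cell was thinned to 5000 UMIs, Kdr was left in 4.09% of somite, 1.11% of neural tube and 0% of epithelial gated cells at E9.5. Etv2 was left in 2.02%, 0.754% and 1.12%. In neural tube gated cells that met no other gate the thinned shares were 0.480% for Kdr and 0.541% for Etv2. At E9.5 the share for Kdr in somite gated cells thus lay above that in both comparison classes at equal depth, whereas that for Etv2 lay within 2-fold of the share in epithelial gated cells. With 180 epithelial gated cells before thinning, their thinned shares rest on very few cells with a UMI, and no intervals are given for them. At E11.5, the 5 somite gated cells with Kdr outside the endothelial gate had 1 UMI each, and none kept it at 5000 UMIs. Kdr was then in 2 of 158 neural tube gated cells, with 13 of the 14 UMIs in a single cell, and in 0 of 99 epithelial gated cells. No expression is read from the E11.5 share.

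Lmo2 in somite gated cells had 397 UMIs (11.3 UPM) at E9.5 and 4 UMIs (0.373 UPM) at E11.5, a log2 ratio of −4.92 with an interval of −6.81 to −3.55. It was spread thinly at E9.5, in 188 cells or 10.2%, against 2.52% of neural tube gated cells. Without the shared cells it had 318 and 3 UMIs. Flt1 had 61 UMIs in the E9.5 and 4 in the E11.5 cells, but only 9 and 2 outside the endothelial gate, so its log2 ratio of −2.22 rests on the shared cells, and outside the gate the interval of −3.72 to 1.80 holds 0. Flt4, Tek, Tie1 and Tal1 had between 14 and 34 UMIs at E9.5 in all somite gated cells and fell short of the 50 UMIs needed.

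Of the ligands, Vegfa was higher and Vegfc lower at E11.5 in somite gated cells. Vegfa was found in 27.0% of E9.5 cells and 42.3% of E11.5 cells, with levels of 19.5 and 32.0 UPM and a log2 ratio of 0.72 (0.53 to 0.91). Vegfc was found in 28.2% and 13.1%, and its level went from 19.8 to 7.82 UPM, a log2 ratio of −1.34 (−1.69 to −1.01). Vegfc at E9.5 was higher in somite gated than in neural tube (6.26 UPM) and epithelial gated cells (2.36 UPM), whereas Vegfa had 26.7 and 44.2 UPM in these classes.

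Of 11788 genes with enough UMIs in somite gated cells, 12% were at least 2-fold higher at E11.5 and 5.33% at least 2-fold lower, with a median log2 ratio of 0.06. Of the 10 genes 6 had enough UMIs, and 5 of these (Etv2, Kdr, Flt1, Lmo2 and Vegfc) were past 2-fold lower and 0 past 2-fold higher. Outside the endothelial gate Flt1 no longer had enough UMIs, which left 4 of 5 lower, beside 11.9% higher and 5.28% lower of 11733 genes. Since genes passed this filter mainly through their E9.5 counts, the count is not support for a direction of all 10.

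Genes of the lists of other ligands, receptor partners, transcription factors and arterial and venous genes lay on both sides of the 2-fold line in somite gated cells. Pgf, a ligand of Flt1, was 4.50-fold higher at E11.5, from 6.15 to 27.7 UPM, and Apln was 3.41-fold lower, with all 6 ligands counted. The Vegf co-receptors Nrp1 and Nrp2 were 2.34-fold and 2.88-fold lower, and the apelin receptor Aplnr went from 99 UMIs to 1, with a log2 ratio of −4.92 and an interval of −10.24 to −2.41. These were 3 of 5 co-receptors and receptor partners with enough UMIs. Of 8 transcription factors with enough UMIs, Prox1, a factor of lymphatic and other lineages, was 4.08-fold higher, and Sox17 and Sox18, factors of endothelial cells, were 3.59-fold and 2.26-fold lower. Gja4, a connexin of arterial cells, went from 133 UMIs to 0, at least 13.5-fold lower, and was the 1 of 5 arterial and venous genes with enough UMIs past 2-fold. Outside the endothelial gate, Sox17 (18 and 2 UMIs), Sox18 (42 and 4) and Gja4 (18 and 0) no longer had enough UMIs, so that 0 of 6 transcription factors and 0 of 4 arterial and venous genes were past 2-fold lower. All 4 co-receptors and receptor partners with enough UMIs were lower there. Aplnr had 72 and 0 UMIs, and Plxnd1, a semaphorin receptor, was 4.32-fold lower (98 and 7 UMIs). Aplnr and Plxnd1 passed the filter mainly through their E9.5 counts, so the count is not support for a direction of the whole list. Pgf, Apln, Nrp1, Nrp2 and Prox1 stayed past 2-fold in their directions, and Angpt2, a ligand of Tek, was 2.04-fold higher.

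Co-detection of Pax3 with Kdr or Etv2 was then counted over the whole libraries. At E9.5, 204 of 2851 Pax3-positive cells (7.16%) had Kdr, where independence of the genes gives 205 cells, a ratio of 0.99 with an interval of 0.86 to 1.14. Since endothelial cells carry Kdr and mostly lack Pax3, the same count was made outside the endothelial gate, where 174 cells had both genes against 125 expected, a ratio of 1.39 (1.19 to 1.61). With cells thinned to 5000 UMIs the ratio there was 1.41 (1.06 to 1.83).

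Pax3 and Etv2 were found together in 103 E9.5 cells against 112 expected, and outside the endothelial gate in 89 against 82.8, a ratio of 1.07 whose interval of 0.86 to 1.32 holds 1. Thinned, that ratio was 0.82 (0.53 to 1.22). At E11.5, 12 cells had Pax3 and Kdr against 20.9 expected, and 0 of 1085 Pax3-positive cells had Etv2, with 1.70 expected. No cell had either pair at E11.5 once thinned.

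Kdr and Etv2 were found together far more often than independence gives. At E9.5, 93 cells outside the endothelial gate had both, against 12.4 expected, a ratio of 7.49 (6.04 to 9.17). Thinned to 5000 UMIs this ratio was 17.9 (13.7 to 23.0). Within somite gated cells outside the endothelial gate, 29 cells had both against 4.90 expected, and the thinned ratio was 12.7 (7.09 to 20.9).

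**Figure D3:**
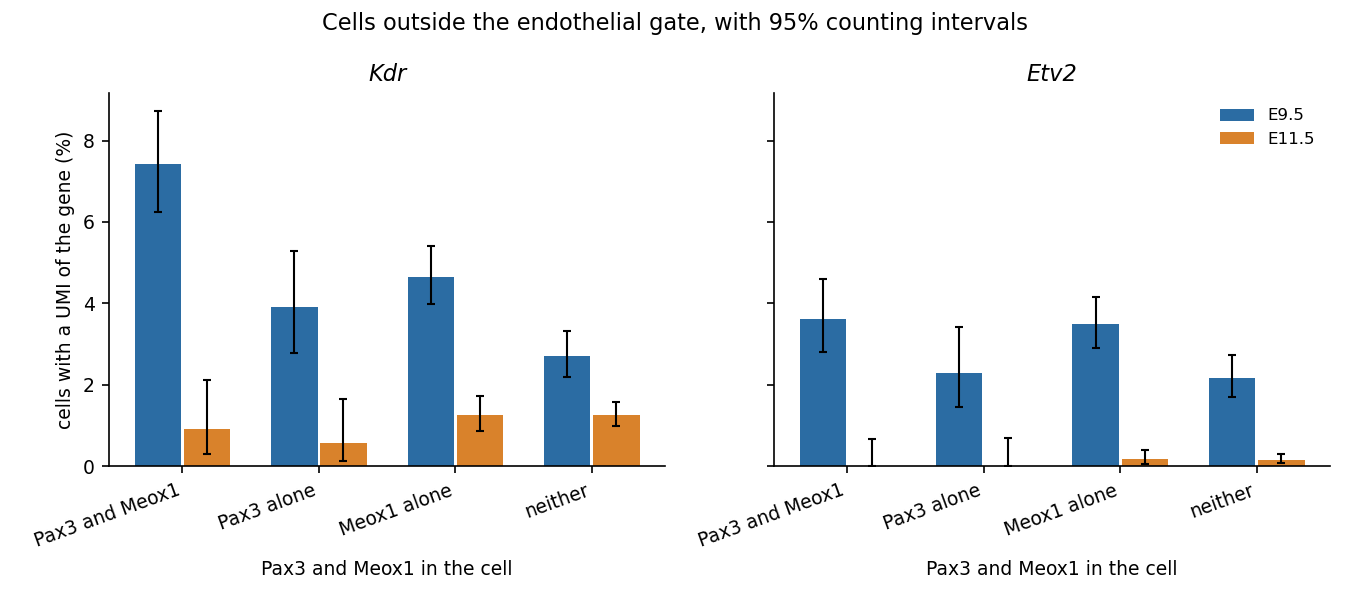
Percent of cells outside the endothelial gate with a UMI of Kdr (left) or Etv2 (right), by whether the cell had Pax3 and Meox1, at E9.5 (blue) and E11.5 (orange), with exact 95% binomial intervals. The Kdr share was highest in cells with both genes at E9.5 (7.42%), while the Etv2 shares with Meox1 alone (3.49%) and with both (3.63%) lay within each other's intervals.

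By Pax3 and Meox1 status, Kdr at E9.5 was in 7.42% of 1820 cells with both genes (6.26 to 8.72), 3.9% of 1000 cells with Pax3 alone (2.79 to 5.29), 4.66% of 3435 cells with Meox1 alone (3.98 to 5.42) and 2.71% of 3279 cells with neither (2.19 to 3.33). The interval for both genes overlapped none of the others, but the median depth also differed, at 16138.5, 13664.5, 12102 and 10704 UMIs in this order. Thinned, the shares were 3.59%, 2.16%, 2.22% and 1.52%, for which no intervals were computed. Etv2 was in 3.63%, 2.3%, 3.49% and 2.17% of the same cells, and thinned in 1.82%, 1.23%, 1.83% and 1.62%, an almost flat order. At E11.5, Kdr was in 5 of 548 cells with both genes and Etv2 in 0.

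Among the 1820 somite gated cells outside the endothelial gate at E9.5, 135 had a UMI of Kdr and 1685 had none. The cells with Kdr were richer in Etv2 and in Lbx1, a factor of migrating muscle precursors such as those of the limbs. Because the cells were split by Kdr, what follows is a description. Cdh5, which the endothelial gate uses, had UMIs in 0 of the 135 and 4 of the 1685 cells, and Pecam1 in 0 and 13. The other gate genes were higher in the cells with Kdr. Cldn5 had 19.0 and 0.570 UPM, Egfl7 57.4 and 28.4 UPM and Ramp2 18.0 and 10.9 UPM. Emcn (4.67 and 0.792 UPM) and Esam (2.67 and 0.222 UPM) were under 50 UMIs. Of endothelial markers outside the gate, Fli1 (38.0 and 17.2 UPM), Plvap (9.01 and 3.77 UPM) and Ecscr (5.67 and 2.34 UPM) were higher too. Erg, Eng, Icam2 and Sox18, also under 50 UMIs, had higher UPM. Etv2 had 291 UMIs in the cells with Kdr and 40 in those without, or 97.1 and 1.27 UPM, a log2 ratio of 6.26 (5.78 to 6.77). Lbx1 had 86.4 and 5.96 UPM, a log2 ratio of 3.86 (3.58 to 4.14), and was present in 67 of the 135 cells (49.6%) against 5.28% of the others. The median depth was 19334 UMIs in the cells with Kdr and 16017 in the rest, and 18.5% and 12.3% were Scrublet calls. When Scrublet calls were left out, the log2 ratio of Etv2 was 6.87.

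Seen from the other gene, Kdr was in 67 of 156 somite gated cells with Lbx1 (42.9%, 35.1 to 51.1) and in 68 of 1664 without it (4.09%, 3.19 to 5.15). Thinned to 5000 UMIs these shares were 24.4% and 1.63%. Etv2 was in 20 (12.8%) and 46 (2.76%) of these cells. Lmo2 went the other way, in 6 cells with Lbx1 (3.85%, 1.42 to 8.18) and in 10.2% of those without (8.75 to 11.7), and Tal1 was in 0 of 156 and 8 of 1664. The cells with Lbx1 had a median of 17900 UMIs, those without 16025.5.

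Of 11041 genes with at least 50 UMIs in these somite gated cells, 1.32% were at least 2-fold higher in the cells with Kdr and 2.04% at least 2-fold lower, with a median log2 ratio of −0.01. Kdr apart, 4 of the 9 other genes had enough UMIs, of which Etv2 and Lmo2 (26.4 against 7.57 UPM) were past 2-fold higher and 0 lower. Etv2, with 40 UMIs in the cells without Kdr, passed the filter only through the cells with Kdr. The count is therefore not support for a direction of the 9 genes. Lmo2 was in 15 of the 135 cells (11.1%) and in 9.50% of the others, and 70 of its 79 UMIs in the cells with Kdr came from 9 cells that also had Etv2. Vegfa had 15.7 and 19.9 UPM and Vegfc 22.7 and 19.6 UPM, with intervals that hold 0. Tal1, below the filter, had 16 UMIs in 5 of the cells with Kdr and 5 UMIs in 3 of the others. The cells with Kdr held 2996280 UMIs in all and the others 31565647, so Tal1 had 5.34 and 0.158 UPM. Flt1, Flt4, Tek and Tie1 were below the filter too. Flt1 had 5 and 4 UMIs (1.67 and 0.127 UPM), and Flt4 5 and 3 (1.67 and 0.095 UPM). Tek had 1 and 3 UMIs (0.334 and 0.095 UPM), and Tie1 0 and 5 (0 and 0.158 UPM).

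The 10 genes with the highest log2 ratio were Etv2, Cldn5 (5.06), C2cd4a (3.96), Lbx1, Zcchc12 (3.73), Acta1 (3.65), Hbb-bs (3.22), Fmn1 (2.86), Phox2a (2.85) and Hopx (2.70). Cldn5, a tight junction protein of endothelial cells, came from 8 cells with up to 20 UMIs in a cell. Acta1, the skeletal muscle actin, and Hbb-bs, an adult beta globin, each came from 2 cells, with 56 of the 57 Acta1 UMIs in a single cell, and Phox2a, a neuronal factor, from 4 cells. Hopx, C2cd4a, Zcchc12 and Fmn1 were spread over 55, 17, 18 and 20 cells. The 5 lowest genes, Foxa2, Myocd, Dlx2, Alpk2 and Gm29508, had 0 UMIs in the cells with Kdr and between 56 and 101 in the others. With 3 counts as the limit for a count of 0, they were at least 3.20-fold, 2.82-fold, 2.44-fold, 1.93-fold and 1.77-fold lower. For Alpk2 and Gm29508 a 2-fold difference is thus not shown.

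The lists of somite compartments were compared in the same split. Of the hypaxial genes, Met, the receptor that lets these muscle precursors leave the somite, was 3.24-fold higher in the cells with Kdr, and Sim1 was similar with 13 and 14.8 UPM. The dermomyotome genes Dmrt2 and Wnt6 were 2.04-fold and 2.49-fold lower. Pax7, of the same list, had 3.67 and 5.04 UPM, with an interval of the log2 ratio from −1.49 to 0.42 that holds 0. En1, below the filter, had 0 and 7 UMIs. Of the new somite genes, Cer1 had 1 UMI against 93 (0.334 and 2.95 UPM), and Ripply2 was 1.64-fold lower. Mesp2 (0.667 and 0.634 UPM) and Tbx6 (0.667 and 0.824 UPM) were below the filter. General somite genes stayed close, with log2 ratios of −0.44 for Tcf15, −0.21 for Foxc1, −0.18 for Foxc2, −0.12 for Meox2 and −0.06 for Twist1. The myotome gene Myf5 had 16.4 and 24.8 UPM and the sclerotome gene Pax1 21.0 and 29.8 UPM, each less than 2-fold apart. Pax9 (2.67 and 4.91 UPM) and Myog (6.34 and 8.08 UPM, from 1 cell with Kdr) had intervals that hold 0. Myod1 (0 and 9 UMIs) and Nkx3-2 (0 and 0) were below the filter. Of the lateral plate genes, only Hand2 passed the filter, with 9 and 64 UMIs. Its log2 ratio was 0.57, with an interval of −0.63 to 1.58 that holds 0. Foxf1 had 11 and 36 UMIs (3.67 and 1.14 UPM), from 5 cells with Kdr. Hand1 had 5 and 20 UMIs (1.67 and 0.634 UPM), and Gata4 1 and 4 (0.334 and 0.127 UPM). Whether cells with Kdr came from the lateral plate was not tested. In the 61 cells with 2 or more Kdr UMIs, Myf5 had 16.3 UPM but Pax1 only 7.74 UPM. Pax1 was thus 3.85-fold lower than in the cells without Kdr, with a log2 interval of −3.01 to −1.06. Myog had 0 UMIs there against 255, at least 3.48-fold lower. In the same 61 cells Foxf1 and Hand2 had 1 UMI each, and Hand1 and Gata4 had 0. At E11.5 only 5 cells had Kdr, 2 of them Scrublet calls, and no genes were ranked.

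Kdr was more frequent in cells with more Etv2 UMIs. Among E9.5 somite gated cells outside the endothelial gate, Kdr was in 6.04% of 1754 cells without Etv2, in 7 of 41 cells with 1 UMI (17.1%), in 8 of 11 cells with 2 to 4 UMIs (72.7%) and in 14 of 14 cells with 5 or more. In cells of neither gate the same shares were 2.99%, 10.1%, 35.3% and 92.7%. In both the share was higher with each step in Etv2 UMIs, the step from 0 to 1 UMI included, whereas in endothelial gated cells it lay between 88.2% and 97.0%. Median depth rose over the same steps. It was 16086.5, 18676, 18855 and 19790 UMIs in the somite gated cells and 11636, 13289, 14102.5 and 14624 UMIs in cells of neither gate. The part of depth in these shares was not tested. Of the 135 somite gated cells with Kdr, 106 had no Etv2 UMI. Etv2 was in 37 of the 1685 cells without Kdr (2.20%) and in 26 of the 61 cells with 2 or more Kdr UMIs (42.6%).

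**Figure D4:**
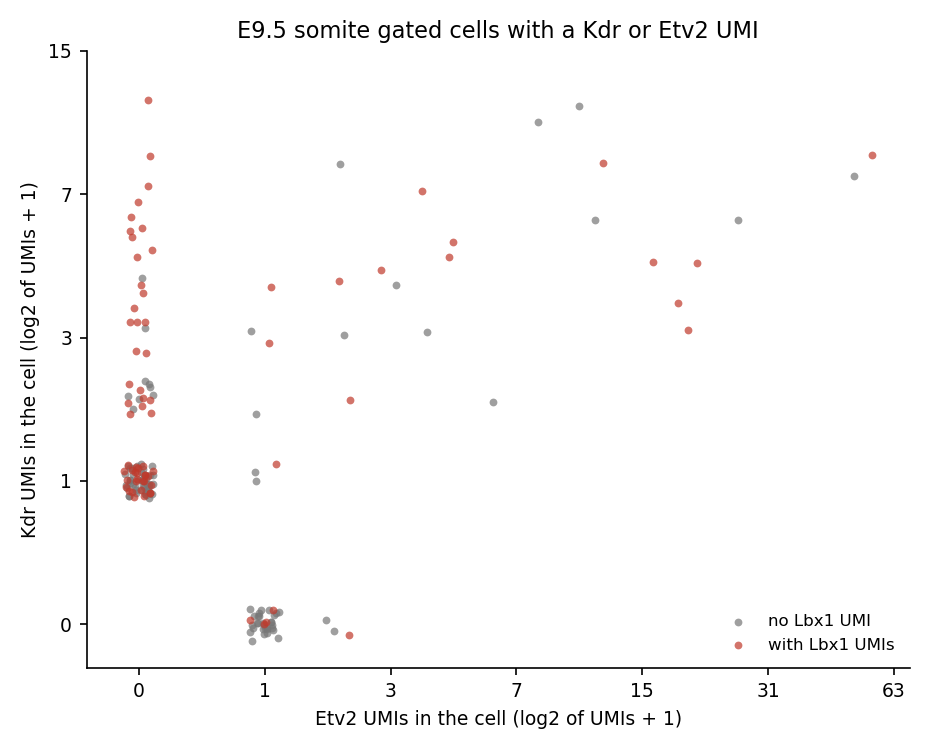
UMIs of Kdr against UMIs of Etv2 in each of the 172 E9.5 somite gated cells outside the endothelial gate that had either gene, on axes of log2(UMIs + 1) with small random offsets so that points do not overlap, and with cells that had Lbx1 in red. All 14 cells with 5 or more Etv2 UMIs had Kdr, and a column of cells with up to 12 Kdr UMIs and no Etv2, many with Lbx1, stands at the left.

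The cells were next divided by both genes, a division chosen after these values were seen. Of the somite gated cells outside the endothelial gate at E9.5, 1648 had neither gene, 106 had Kdr alone, 37 had Etv2 alone and 29 had both. The 29 cells with both carried between 1 and 53 Etv2 UMIs, with a median of 4, at 477 UPM (424 to 535) for Etv2 and 226 UPM (190 to 267) for Kdr. Of the 29, 1 was a Scrublet call (3.45%), beside 11.9% of the 1648 cells with neither gene. Whether these shares differ was not tested. They had Pax3 at 223 UPM and Meox1 at 308 UPM beside 202 and 427 UPM in the cells with neither gene, and 15 of them (51.7%) had Lbx1.

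In these 29 cells Lmo2 stood at 114.7 UPM (89.4 to 145) and Tal1 at 26.2 UPM (15.0 to 42.6), and both came from a part of the cells, 9 with Lmo2 and 5 with Tal1. Flt1 had 5 UMIs in 2 cells, and Tie1, Cdh5 and Pecam1 had none. Absence of Cdh5 is in part set by the endothelial gate, which removed cells with Cdh5 and 2 further genes. Cldn5 was at 88.5 UPM in 6 cells, Sox18 at 31.1 UPM in 6 cells and Hhex, a factor of early blood and endothelium, at 27.9 UPM in 7 cells.

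The 106 cells with Kdr alone differed from these. Kdr was at 85.1 UPM (73.8 to 97.6), Lbx1 at 82.6 UPM (71.4 to 94.9) in 52 cells (49.1%), and Met at 13.8 UPM. Lmo2 had 9 UMIs (3.77 UPM, against 7.52 UPM in the cells with neither gene), Flt1 and Tal1 had 0 and Cldn5 had 3. Fli1, an ETS factor of endothelial and blood cells, had 37.3 UPM in them, 41.0 UPM in the cells with both genes and 17.1 UPM in the cells with neither. Scrublet calls made up 22.6% of the 106 and 11.9% of the 1648 cells with neither gene, and 23 and 190 of these cells met the neural tube gate. Their part in the Kdr of these cells was not tested. The 37 cells with Etv2 alone had at most 2 Etv2 UMIs each, and 29.7% were Scrublet calls.

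**Figure D5:**
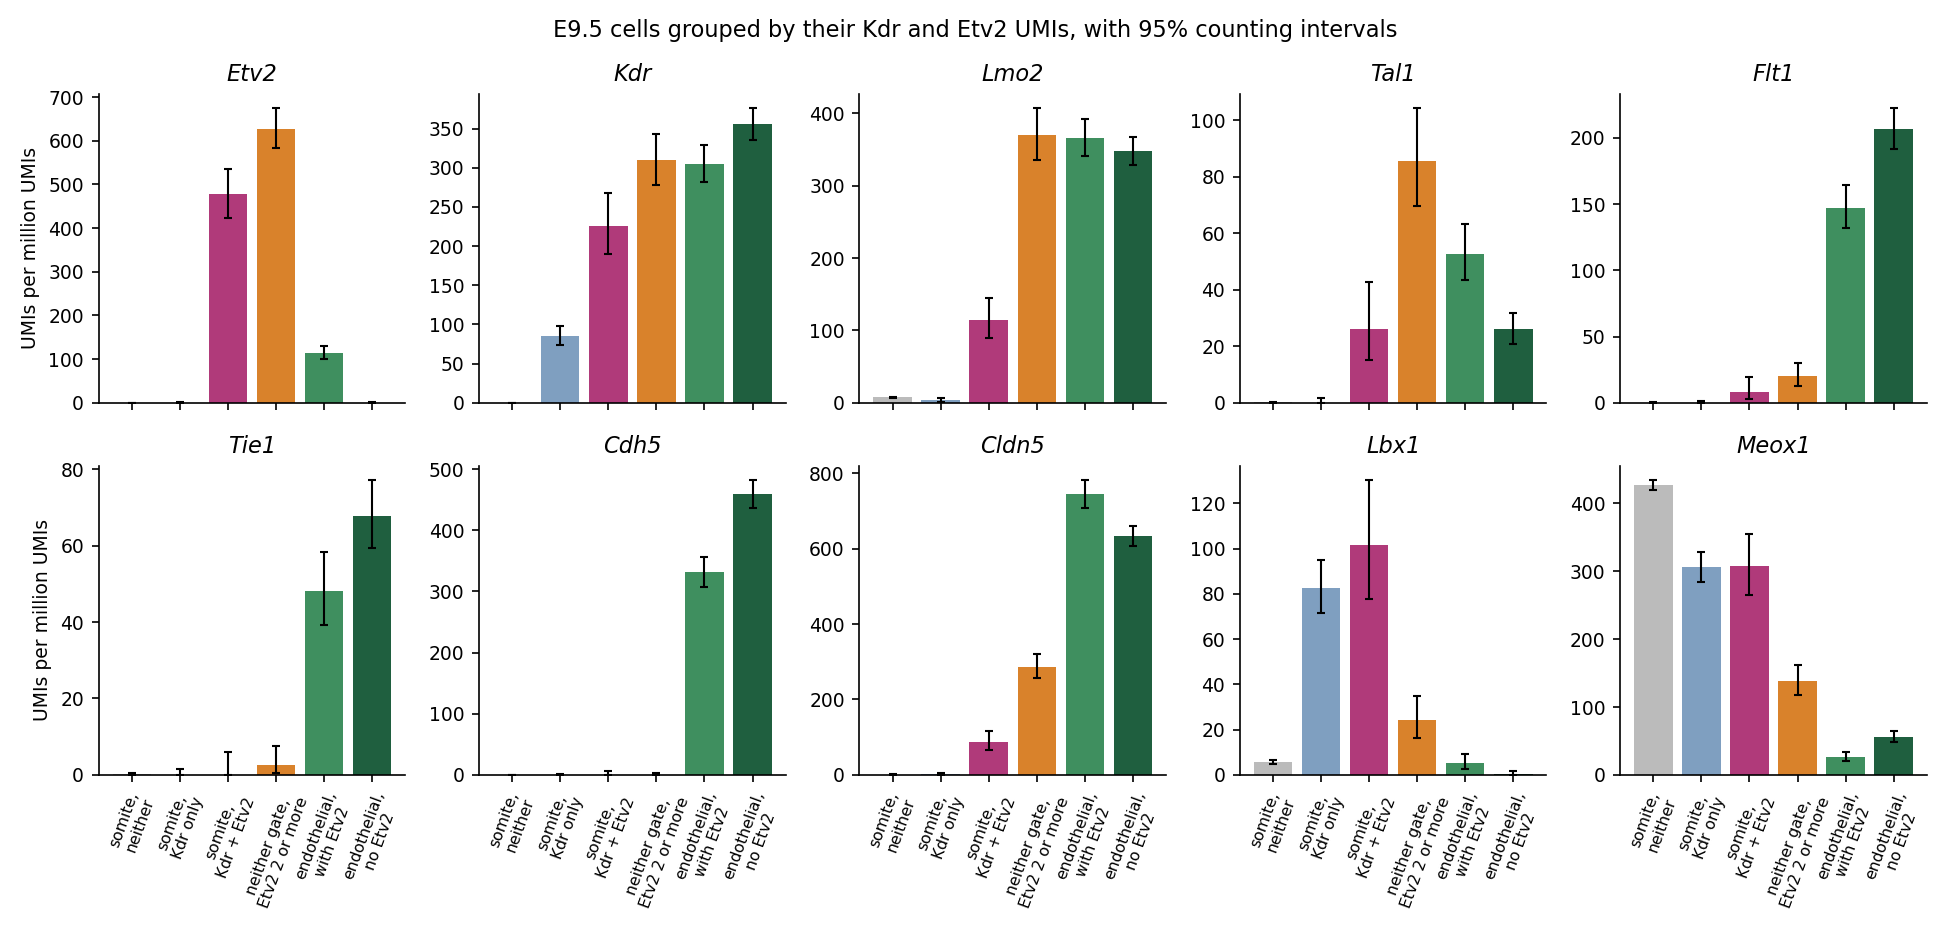
Levels of Etv2, Kdr, Lmo2, Tal1, Flt1, Tie1, Cdh5, Cldn5, Lbx1 and Meox1 in UPM, on axes that start at 0 and differ between panels, in E9.5 cells grouped by gate and by their Kdr and Etv2 UMIs, with exact 95% Poisson intervals. The groups were cut by Etv2 and Kdr, so their levels of these 2 genes follow from the choice of cells. Cdh5 and Cldn5 are genes of the endothelial gate and Meox1 of the somite gate, so their levels are in part set by the gates. Flt1 and Tie1 are high in endothelial gated cells, and Lbx1 is high in both somite groups with Kdr.

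Much of the Etv2 lay outside both gates. Of its 1444 UMIs at E9.5, 17.2% were in endothelial gated, 25.2% in somite gated and 50.3% in cells that met none of the 13 gates. Endothelial and somite gated cells made up 3.22% and 18.7% of the library. The share of cells that met no gate is not given, so the 50.3% is not read as an enrichment. The 75 cells of neither the endothelial nor the somite gate with 2 or more Etv2 UMIs had Etv2 at 627 UPM (491 UPM in the 25 somite gated cells with 2 or more), Kdr at 310 UPM, Lmo2 at 370 UPM and Tal1 at 85.6 UPM. Meox1 was in 44 of them (138 UPM) and Pax3 in 7. Cldn5 stood at 287 UPM, Hhex at 189 UPM and Sox18 at 118 UPM, while Flt1 had 19.9 UPM, Tek 8.65 UPM, Tie1 2.59 UPM and Cdh5 0. The absence of Cdh5 is again in part set by the endothelial gate. Scrublet calls were 6 of the 75 (8%), beside 5.85% of all E9.5 cells.

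Within the endothelial gate at E9.5, 106 cells had Etv2 and 211 did not, with medians of 18840 and 14111 UMIs. Both groups carried all 5 receptors, with Kdr at 305 and 355 UPM, Flt1 at 147 and 207 UPM, Flt4 at 97.5 and 83.4 UPM, Tek at 87.3 and 72.2 UPM and Tie1 at 48.1 and 67.9 UPM. Of 7882 genes with enough UMIs, 0.381% were at least 2-fold higher in the cells with Etv2 and 1.19% at least 2-fold lower, with a median log2 ratio of 0.01. Of the 9 other genes, Tal1 was 2.03-fold higher (52.7 against 26 UPM) and Vegfc 5.74-fold lower (5.08 against 29.2 UPM). The arterial connexin Gja4 had 6.47 UPM in the cells with Etv2 and 192 UPM in those without, and Gja5 had 0 and 128 UMIs. Pecam1 was 2.34-fold, Dll4 2.26-fold and the somite gate gene Meox1 2.12-fold lower in the cells with Etv2. Of genes of veins and lymphatics, Nr2f2 had 171 and 107 UPM and Nrp2 183 and 94.4 UPM, each higher with Etv2 by under 2-fold. Their log2 intervals were 0.47 to 0.89 and 0.74 to 1.17, the latter reaching past 2-fold. Ephb4 had 40.2 and 37.8 UPM, with an interval that holds 0. Prox1, under 50 UMIs, had 13 and 7 UMIs (6.01 and 2.02 UPM).

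Across 22 class and stage levels, the 5 genes most like Kdr by Pearson correlation of log2(UPM + 1), of 9791 genes ranked, were Gja4 (0.94), Icam2 (0.94), Sox18 (0.93), Klhl4 (0.93) and Shank3 (0.93). Of the 10 genes, Tie1, Flt4, Flt1 and Tek had values of 0.92, 0.91, 0.90 and 0.88 with Kdr, Lmo2 0.72, Vegfc 0.56, Etv2 0.52, Tal1 0.32 and Vegfa −0.40. The genes most like Etv2 were Csn3 (0.78), Mogat2 (0.73), Upp1 (0.69), Bola2 (0.68) and Dqx1 (0.68). The points share cells, depth and library, and the values are descriptions.

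Tal1 and Vegfa differed most from Kdr in where their transcripts lay. Red blood gated cells held 30.9% of all E9.5 Tal1 UMIs and 57.5% of all E11.5 Tal1 UMIs, at 95.5 and 94.9 UPM, beside 0 and 1 UMIs of Kdr. Neuron gated cells held 27.9% of the E11.5 Tal1 UMIs, neural tube gated cells 11.6% and endothelial gated cells 7.16%, with cells of several gates counted in each. Tal1 stood at 25.7 UPM in neural tube gated cells at E11.5, where its 47 UMIs came from 5 cells. Lmo2 was at 53.0 and 38.7 UPM in red blood gated cells. By contrast 94.0% of Tek, 90.6% of Tie1, 89.7% of Flt1 and 88.0% of Flt4 UMIs at E9.5 were in endothelial gated cells, against 64.0% of Kdr and 64.8% of Lmo2. Vegfa had 2.16% of its UMIs there at E9.5 and 0.237% at E11.5.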

How the data were processed

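Single-cell libraries (10x Genomics) of inter-limb somites were made by the authors, who counted UMIs per gene and barcode with Cell Ranger 3.0.1, named in the submitters' processing notes, on mm10. The values are raw UMI counts for 27998 genes as deposited by the authors, without normalization. Cells with at least 200 and under 6500 genes and under 15% mitochondrial UMIs were kept, as in the study, which removed 270 of 10121 barcodes at E9.5 and 572 of 10167 at E11.5. Scrublet, run on the kept cells through scanpy 1.11.5 with an expected rate of 0.08, gave the doublet calls.

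UMIs were summed over gated cells and divided by all UMIs of those cells. Exact Poisson, ratio-of-Poisson and Clopper-Pearson intervals (95%) cover counting error only, since cells of pooled embryos are not replicates. For shares at equal depth, 5000 UMIs were drawn from every cell, and 537 and 727 shallower cells were left out. Genes were compared between classes from 50 UMIs. The ratio was tested on simulated Poisson sums for 8592 genes of the endothelial comparison, with 200 changed genes: the median absolute error was 0.137 on the log2 scale and 95.9% of intervals held the true value. Because the intervals assume the same Poisson model, this checks the calculation only. Clumping of UMIs in single cells was not simulated.

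The 10 genes and the lists were chosen with earlier results of these data known. Named genes were the 10 genes, genes of the pathway lists past 2-fold between stages, genes of the compartment lists, the 10 highest and 5 lowest genes with against without Kdr and the 5 most like Kdr and like Etv2. Other genes named, markers included, were chosen after their values were seen. Alternatives were other endothelial and somite gates, cells of several gates, Scrublet calls or cells under 1000 genes left out, the mean over cells, thinning, and detection from 2 UMIs. Promoters came from RefSeq (GRCm38.p6) and gene positions from GENCODE M21. Of the 10 genes, Lmo2 was not matched. Python 3.11.15, numpy 2.4.6, scipy 1.17.1, pandas 2.3.3 and matplotlib 3.10.9 were used.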

Additional observations from a re-analysis of the deposited data

How the results depend on the processing

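Of 172 values recomputed for 26 results, 146 stayed within the counting interval of the value reported, and 26 moved out of it. Headline results were the Kdr stage ratios, the Kdr and Etv2 shares, Pax3 with Kdr over all E9.5 cells, and Etv2 with over without Kdr. In these, 33 values stayed and 16 moved, against 113 and 10 in the other results. Leaving out cells under 1000 genes did not alter the Kdr values of somite gated cells, which are counted as stayed. No value whose interval excluded equality changed direction. Among log2 ratios whose interval holds 0, Flt4 in endothelial gated cells went from 0.12 to −0.01 without cells that met another gate and to −0.07 as a mean over cells, Flt4 in somite gated cells from 0.21 to −0.55 as a mean over cells, and Tal1 in somite gated cells from −0.87 to 0.21 with the somite gate from 2 UMIs. The Kdr log2 ratio between stages in somite gated cells was −1.68 with the somite gate from 2 UMIs, −5.39 without cells that met another gate, −3.51 thinned and −4.39 outside the endothelial gate. The Kdr share of somite gated cells at E9.5 was 4.09% thinned and 4.02% from 2 UMIs, and the Etv2 share 2.02% and 1.58%. At E11.5 the Kdr share was 0.5% without cells that met another gate, 0.365% thinned and 0.363% from 2 UMIs. Pax3 with Kdr over all E9.5 cells had a ratio to expectation of 0.76 thinned and 0.79 from 2 UMIs, where the intervals of 0.58 to 0.98 and 0.64 to 0.96 lay below 1. The Etv2 log2 ratio of cells with over without Kdr was 6.99 without cells that met another gate, 6.87 without Scrublet calls and 7.46 with Kdr from 2 UMIs. Thinning and the cut at 2 UMIs lower a share by construction, and the cause of the other shifts was not tested. The Kdr ratio in endothelial gated cells stayed between 0.39 and 0.56. Vegfa there, at −0.97, was past 2-fold lower in several alternatives. It was −1.45 without cells that met another gate, −1.38 thinned, −1.12 as a mean over cells and −1.06 without Scrublet calls. Other gates gave −1.06 (Cdh5 and 4 of 6 genes) and −0.96 (Cdh5 and Pecam1), and cells from 1000 genes −0.97. Tal1 was −1.16 without cells that met another gate and otherwise between −0.94 and −0.53. Vegfc was 1.14 as a mean over cells and otherwise between 0.24 and 0.69.

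No paired analysis was possible because each stage has 1 library. The lowest shares rest on few cells, such as the 79 endothelial gated cells at E11.5 and the 29 somite gated cells with Kdr and Etv2. Outside the endothelial gate, Flt1, Flt4, Tek, Tie1 and Tal1 had under 50 UMIs over both stages in somite gated cells, and their stage ratios there were not read.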
